A study of Mus musculus with 56 samples.

Results

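The 9 genes described here encode the receptor-proximal end of T cell receptor (TCR) signalling in CD8 T cells. They are the CD3 chains *Cd3e*, *Cd3d*, *Cd3g* and *Cd247* (CD3 zeta), the coreceptor chains *Cd8a* and *Cd8b1*, and the kinases *Lck*, *Zap70* and *Txk*. They were taken by name, through their Ensembl identifiers, from a table of raw RNA-Seq counts that lists 55359 genes, and all 9 were among the 19657 genes that passed the filter on low counts. RNA-Seq was done on 200 sorted CD8 T cells per library with the SmartSeq2 protocol. The cells came from spleen and pooled lymph nodes of individual female C57BL/6 mice and bound a pair of H-2Kb tetramers loaded with an ovalbumin peptide, so they are specific for a fetus or graft that carries 2W-OVA (fetus/graft-specific T cells, TFGS). CD8 protein was part of the sort gate, so the levels of *Cd8a* and *Cd8b1* are those of cells chosen as CD8+CD4-.

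The samples formed 7 groups. Naive mice (3 samples) had no treatment and were not mated. Sensitized mice (4 samples) had rejected a 2W-OVA.BALB/c skin graft and were not mated. N+P TFGS came from naive mice after a semi-allogeneic pregnancy sired by 2W-OVA.BALB/c males, as PD1- cells (N+P C1, 3 samples) and PD1+CD73+ cells (N+P C5, 3 samples). S+P TFGS came from mice that had rejected the skin graft and were then pregnant by the same kind of male, as PD1- cells (S+P C4, 6 samples), PD1+CD73+ cells (S+P C5, 6 samples) and PD1+CD73- cells (S+P C7, 5 samples). Post-partum subsets with the same replicate number were taken to come from 1 mouse, which the labels do not state. The labels also number more S+P replicates than the study gives for a group, so it is not settled that each number is a mouse of its own. The mice were bought as young adults, and the subset names are those of clusters found by flow cytometry, so each post-partum group is a gated share of the TFGS of its mice.

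The alpha and beta chains of the TCR bind peptide on MHC but have almost no cytoplasmic tail, and the CD3 chains carry the tyrosine motifs that turn binding into a signal. The CD8 coreceptor holds the same MHC class I molecule and brings in LCK, which phosphorylates the CD3 motifs. ZAP70 docks on the phosphorylated motifs and phosphorylates the adaptors LAT and SLP-76, on which Tec family kinases such as TXK (also called RLK) activate phospholipase C gamma.

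The 56 libraries held 6636532 to 32625243 counts, with a median of 17299849. The technical libraries of a replicate and subset were added up, 1 library column with the same counts in Naive and S+P C4 was left out of both groups, and a nearly identical pair of columns from replicates 1 and 2 of S+P C7 was averaged, which left 30 samples. The samples had 15547934 to 54809406 counts. Some samples rest on 1 library each. They are Naive replicate 1, S+P C4 replicates 1, 2 and 3, S+P C5 replicates 2 and 3, and S+P C7 replicate 3. Replicates 2 and 3 of S+P C4 and replicate 3 of S+P C7 had under 9000 genes detected by at least 1 count. They stood apart from the other 27 samples. Several results that rest on them are also given without them. Ranges and means of S+P C4 and S+P C7 include them unless stated. S+P C7 replicate 3 also had a summed level of 5 erythroid genes of 20068 counts per 1000000 (CPM), where the next highest sample had 419. Its sums for B cell, NK cell and dendritic cell genes, at 8234, 328 and 389.6 CPM, were the highest as well. Of its 6 B cell genes only *Ighm* was above 1 CPM, and *Cd4*, *Zbtb7b* and *Foxp3* were at 0 there. Over all samples *Cd4* was at most 3.71 CPM and *Foxp3* at most 4.45 CPM, against 132 to 532 CPM for *Thy1* (CD90).

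The genes lie in 6 places in the mouse genome (GRCm39, GENCODE release M39). *Cd3g* (chr9:44880870-44891735, minus strand) and *Cd3d* (chr9:44893083-44899173, plus strand) are divergent neighbours whose start sites are 1348 bases apart. *Cd3e* (chr9:44910037-44920925, minus strand) starts 27828 bases from *Cd3d*. *Cd8b1* (chr6:71299772-71315087) and *Cd8a* (chr6:71350411-71356157), both on the plus strand, start 50639 bases apart. *Cd247* (chr1:165616250-165704846) and *Zap70* (chr1:36800837-36821905) are on the plus strand of chromosome 1, *Lck* (chr4:129442137-129467434) on the minus strand of chromosome 4 and *Txk* (chr5:72853321-72910120) on the minus strand of chromosome 5, where its paralogue *Tec* starts 115711 bases away. The reads mark no strand, and 3007 of the exonic bases of *Cd247* are shared with *Pou2f1* on the other strand, so reads of *Cd247* from there could not be assigned.

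The promoters of 3 of these genes are printed here, each from 250 bases before to 50 bases after the start of the Ensembl canonical transcript, 5′ to 3′ on the strand of the gene. *Txk* is shown because it was the member called in a comparison, *Cd3e* because its level ran opposite to that of *Txk* over the samples, and *Lck* because it held the most matches. Capitals mark AGGAAG, the core of many ETS factor sites, or its reverse complement, and TGTGGT, a RUNX core, or its reverse complement.
Txk, chr5:72910071-72910370, minus strand: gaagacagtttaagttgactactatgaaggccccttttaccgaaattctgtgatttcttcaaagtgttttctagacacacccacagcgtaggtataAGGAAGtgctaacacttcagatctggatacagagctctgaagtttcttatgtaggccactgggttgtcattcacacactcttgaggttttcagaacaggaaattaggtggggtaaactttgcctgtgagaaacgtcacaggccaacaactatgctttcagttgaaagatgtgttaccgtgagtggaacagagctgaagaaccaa
Lck, chr4:129467385-129467684, minus strand: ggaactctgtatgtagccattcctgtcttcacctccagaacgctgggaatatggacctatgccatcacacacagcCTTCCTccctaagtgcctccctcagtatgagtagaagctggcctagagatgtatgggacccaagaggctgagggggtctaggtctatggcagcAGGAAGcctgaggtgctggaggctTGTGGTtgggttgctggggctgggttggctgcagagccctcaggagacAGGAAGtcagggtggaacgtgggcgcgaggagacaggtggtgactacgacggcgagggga
Cd3e, chr9:44920862-44921161, minus strand: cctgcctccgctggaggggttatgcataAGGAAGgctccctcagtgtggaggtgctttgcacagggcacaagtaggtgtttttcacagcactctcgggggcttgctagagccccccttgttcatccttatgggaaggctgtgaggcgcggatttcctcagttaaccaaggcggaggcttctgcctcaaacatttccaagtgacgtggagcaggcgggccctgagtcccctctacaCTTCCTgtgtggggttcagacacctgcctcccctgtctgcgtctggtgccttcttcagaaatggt
The *Txk* promoter held AGGAAG once, starting 154 bases before the start site. The *Lck* promoter held it 3 times, at 175, 82 and 10 bases before the start site, with TGTGGT at 58. In the *Cd3e* promoter it stood at 222 and 15 bases before the start. On either strand, AGGAAG was in the promoters of 7 of the 9 genes (all but *Cd3g* and *Cd8a*), and in 34.4% of the promoters of 21627 protein-coding genes. TGTGGT was in 1 of 9 against 15.4%, CTTTGA (a TCF core) in 5 of 9 against 16.1%, and TATAAA in 0 of 9 against 13.2%. These are matches of letters in a fixed window, and no binding was measured here.

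All 9 genes were among the more abundant transcripts of every group, and *Txk* was the member whose level differed most between groups. On the scale of CPM over normalized library size, the highest group mean was 1.15 times the lowest for *Cd8b1*, 1.29 times for *Cd8a*, 1.33 for *Cd3g*, 1.35 for *Cd3d*, 1.38 for *Lck*, 1.42 for *Cd247*, 1.73 for *Cd3e* and 2.13 for *Zap70*. For *Txk* it was 3.71 times. The highest *Zap70* mean, 292 CPM in S+P C7, was 232 CPM without the sample of low complexity there. By mean CPM over the 30 samples, *Cd8b1* ranked 39th, *Lck* 68th, *Cd8a* 83rd, *Cd3g* 92nd, *Cd3d* 113th and *Cd3e* 148th of the genes tested. *Cd247* ranked 301st, *Txk* 596th and *Zap70* 659th. In single samples the smallest counts were 1521 for *Txk*, 915 for *Zap70* and 6834 for *Cd8b1*, so counting error was small against the spread between samples. Amplified reads are not independent molecules, so counts describe sequencing depth only.

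**Figure D1:**
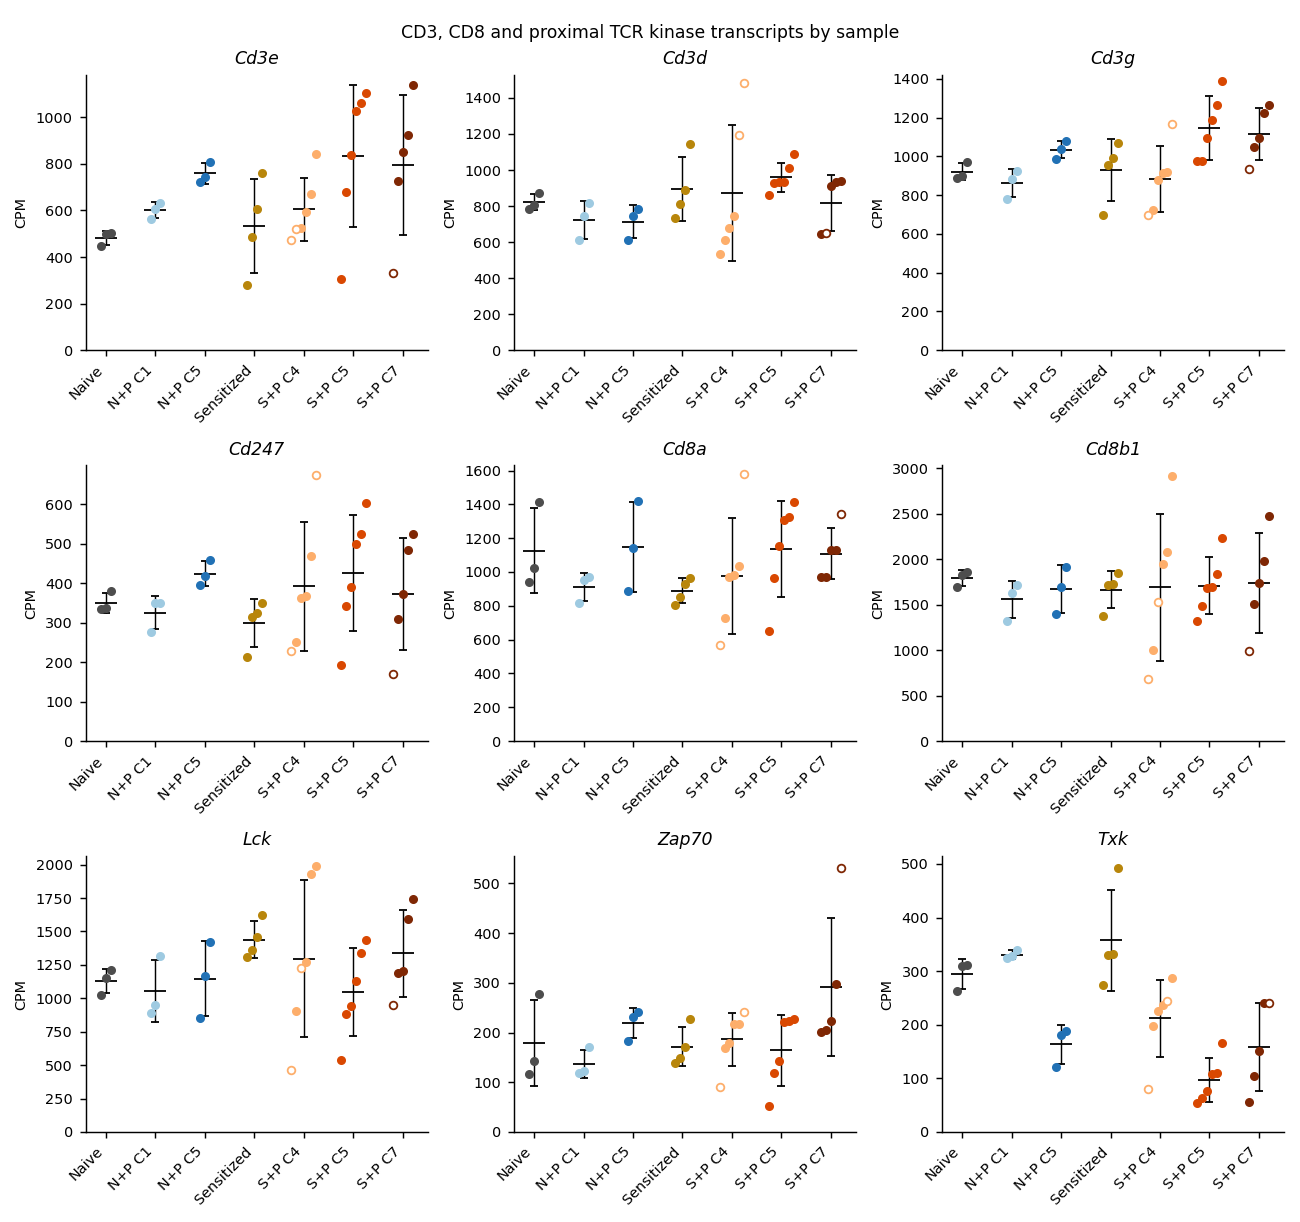
Level of each of the 9 genes in CPM (vertical axes, from 0) in the 30 samples of 7 groups, 1 point per sample, with the mean and SD of each group as a black bar. Open points are the 3 samples with under 9000 detected genes. *Txk* had means of 295 CPM in Naive and 164 in N+P C5, and of 357 in Sensitized and 96.2 in S+P C5, while the group means of *Cd8b1* lay between 1558 and 1795.

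Levels of different genes can be compared per kilobase of exon, where all annotated exonic bases of a gene count in its length (10.955 kb for *Txk*). For *Cd247* its 5.887 kb include the 3007 bases shared with *Pou2f1*, so its level on this scale may be too low. On that scale *Cd8b1* was highest, with a mean of 767 CPM per kb over the 30 samples. *Lck* followed with 386, *Cd3d* with 328, *Cd3g* with 305, *Cd8a* with 287, *Cd3e* with 166, *Cd247* with 63.8, *Zap70* with 54.7 and *Txk* with 19.6. Some neighbours in this order were parted in nearly every sample. *Cd8b1* was above *Lck* in 29 of 30, *Cd8a* above *Cd3e* in 29, *Cd3e* above *Cd247* in 30 and *Zap70* above *Txk* in 29. The order of *Cd3d* and *Cd3g* (17 of 30) and of *Cd3g* and *Cd8a* (19 of 30) changed from sample to sample.

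*Cd3e*, which pairs with both CD3 gamma and CD3 delta, had the largest range of the CD3 chains. Its level was 501, 501 and 448 CPM in Naive, 607, 634 and 564 in N+P C1, and 723, 810.1 and 745 in N+P C5 replicates 1 to 3. The 3 groups did not overlap, with N+P C5 highest and Naive lowest. The technical libraries of N+P C5 replicate 1 had 402 and 938 CPM, and the lower of them lay below the lowest Naive sample. Sensitized samples had 488, 281, 759.7 and 607 CPM. S+P C4 ran from 475 through a median of 559 to 842, and S+P C5 from 306 through 931 to 1104. S+P C7 samples had 851, 329.7, 726, 1141 and 926 CPM. The S+P groups overlapped each other and the Sensitized group. S+P C5 replicate 3 (306) and S+P C7 replicate 3 (329.7) lay well below the rest of their groups. Both of these samples are a single library, and the technical libraries of S+P C7 replicate 6 had 1178 and 460 CPM.

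*Cd3d* and *Cd3g*, the partners of CD3 epsilon, were steadier. *Cd3d* had 874, 806 and 785 CPM in Naive and 786, 744 and 610.2 in N+P C5. It ran from 859 to 1090.2 (median 935) in the 6 S+P C5 samples, which did not overlap N+P C5. In S+P C4 it ran from 534 to 1481, and the 2 highest values, 1197 and 1481, were those of replicates 2 and 3, both of low complexity. *Cd3g* had 970.3, 890.1 and 901 CPM in Naive and 1078, 988 and 1039 in N+P C5, and these groups did not overlap. Its values were 1069, 994, 956 and 698 in Sensitized and 975 to 1388 (median 1140.3) in S+P C5. The pooled SD of *Cd3g* within groups was 0.21 on the log2(CPM + 1) scale. None of the 1614 genes with a mean of at least 100 CPM had a smaller one, and their median was 0.755. The other members had SDs from 0.33 (*Cd3d*) to 0.58 (*Txk*).

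*Cd247*, the zeta chain with the most tyrosine motifs, had 337, 380.1 and 334 CPM in Naive, 350.4, 349 and 277 in N+P C1 and 419, 396 and 459.7 in N+P C5. N+P C5 lay above both other groups in every sample. Sensitized samples had 314, 212, 350.2 and 325 CPM. S+P C4 ran from 229 to 674 (median 365) and S+P C5 from 194 to 603 (median 445), and S+P C7 had 525.8, 170.3, 309.8, 483 and 373. The spread in the S+P groups was wider than the distance between their means of 393, 426 and 372 CPM.

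Since the CD3 chains are built into 1 complex, their ratios were followed as well. Per kilobase, the ratio of *Cd3d* to *Cd3e* was 2.54 to 2.76 in Naive, 1.71 to 2.12 in N+P C1 and 1.29 to 1.71 in N+P C5. It was lower in every N+P C5 sample than in any Naive sample. In Sensitized it spanned 1.68 to 6.41, in S+P C4 1.27 to 4.92, in S+P C5 1.38 to 5.22 and in S+P C7 1.19 to 3.11, so these 4 groups overlapped. The ratio of *Cd3g* to *Cd3e* had a median of 1.82 and that of *Cd247* to *Cd3e* a median of 0.387 over the 30 samples. The ratio of *Cd247* may be too low, since bases shared with *Pou2f1* count in its length. The highest ratios of both *Cd3d* and *Cd3g* to *Cd3e* were in the samples with the lowest *Cd3e*, Sensitized replicate 2 and S+P C5 replicate 3. The next highest ratio of *Cd3d*, 4.92, was in S+P C4 replicate 3, a sample of low complexity with the highest *Cd3d* level (1481 CPM).

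The coreceptor chains were the members with the smallest differences between group means. *Cd8a*, the chain that can also form homodimers, had 1414, 943 and 1024 CPM in Naive, 968, 952 and 814 in N+P C1 and 1419.9, 1142 and 887 in N+P C5. In Sensitized it had 929.5, 966, 853 and 803 CPM and in S+P C7 969, 1342, 973, 1133 and 1127, so every S+P C7 sample was above every Sensitized sample. S+P C4 ran from 567 to 1579.6 (median 975) and S+P C5 from 654 to 1412 (median 1229). Both ends of this S+P C4 range, and the S+P C7 value of 1342, were in samples of low complexity. Without these, S+P C4 ran from 729 to 1033 CPM. *Cd8b1*, whose chain forms the heterodimer with CD8 alpha, had 1822, 1862 and 1699 CPM in Naive, 1713, 1634 and 1325 in N+P C1 and 1918, 1699 and 1401 in N+P C5. It had 1712, 1725, 1851 and 1371 in Sensitized. Its lowest, median and highest values were 678, 1738 and 2921 in S+P C4. They were 1319, 1690.4 and 2229 for S+P C5, and S+P C7 had 995, 1734 and 2474. The lowest values of S+P C4 and S+P C7 were in samples of low complexity. Without these, S+P C4 ran from 998 to 2921 CPM and S+P C7 from 1513 to 2474. All 7 groups overlapped, and 3.36% of the variance of *Cd8b1* on the log2 scale lay between groups, a share below which lay 0.434% of the genes with a mean of at least 100 CPM.

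Per kilobase, *Cd8b1* was above *Cd8a* in all 30 samples, with a median ratio of 2.81. The ratio ran from 1.22 in S+P C7 replicate 3 to 4.90 in S+P C4 replicate 1. Without the 3 samples of low complexity the lowest ratio was 1.84. Naive samples spanned 2.12 to 3.25, Sensitized 2.81 to 3.57 and S+P C5 1.84 to 3.32, and N+P C5 had a median of 2.45, so the groups overlapped except that all Sensitized and all N+P C1 samples were above all N+P C5 samples.

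*Lck*, the Src family kinase carried by CD8, had 1149, 1210.1 and 1028 CPM in Naive and 1626, 1311, 1455 and 1364 in Sensitized. The lowest Sensitized sample was above the highest Naive sample. N+P C1 had 1317, 949.5 and 889.9 CPM and N+P C5 1419, 1169.7 and 854. S+P C4 ran from 459.8 to 1986 (median 1249), S+P C5 from 539.9 to 1439 (median 1036) and S+P C7 from 952 to 1742 (median 1203). The lowest *Lck* value, 459.8, was in S+P C4 replicate 2, a sample of low complexity. Without such samples S+P C4 ran from 907 to 1986 CPM and S+P C7 from 1190 to 1742.

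*Zap70*, the Syk family kinase that binds phosphorylated CD3, was the scarcest member by CPM. Over the 30 samples it had the widest range of group means after *Txk*. Without the samples of low complexity its group means ran from 137 CPM (N+P C1) to 232 (S+P C7). Those of *Cd3e* then ran from 483 (Naive) to 911 (S+P C7), a wider range in proportion. *Zap70* had 278, 143 and 117 CPM in Naive, 170.0, 119 and 122 in N+P C1 and 231, 241 and 184 in N+P C5. All N+P C5 samples were above all N+P C1 samples, and Naive spanned both. Sensitized samples had 227, 138, 149.8 and 171 CPM. S+P C4 ran from 90.8 to 241 (median 199) and S+P C5 from 52.3 to 227 (median 182). Without the samples of low complexity S+P C4 ran from 169 to 218 CPM. S+P C7 samples had 298, 531, 223, 206 and 201. The value of 531 belongs to S+P C7 replicate 3, the sample with the erythroid transcripts, whose part in it was not tested. In the samples other than those of low complexity, the highest *Zap70* value was 298, in the averaged S+P C7 sample.

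*Txk* had the clearest order of groups. Naive samples had 263, 312 and 309.9 CPM, N+P C1 340.3, 328 and 324, and N+P C5 180.5, 189 and 122. N+P C5 lay below both others in every sample. Sensitized samples had 332, 492, 274 and 330.0 CPM. S+P C4 ran from 79.2 through a median of 231 to 288, S+P C5 from 53.3 through 92.7 to 166, and S+P C7 samples had 239.9, 241, 104, 56.1 and 151. No S+P C5 or S+P C7 sample reached the lowest Sensitized sample, and S+P C4 overlapped all of them. By mean, the order was Sensitized (357 ± 94.0, SD, n = 4), N+P C1 (331 ± 8.34, n = 3), Naive (295 ± 28.0, n = 3), S+P C4 (212 ± 71.4, n = 6), N+P C5 (164 ± 36.6, n = 3), S+P C7 (158 ± 82.2, n = 5) and S+P C5 (96.2 ± 41.1, n = 6). Neighbours in this order overlapped, except N+P C1 and Naive. Of the variance of *Txk* on the log2 scale, 64.9% lay between groups, a share that 96.0% of the genes with at least 100 CPM did not reach. The lowest S+P C4 value, 79.2, was in replicate 2, a sample of low complexity, and without both such samples S+P C4 ran from 198 to 288.

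**Figure D2:**
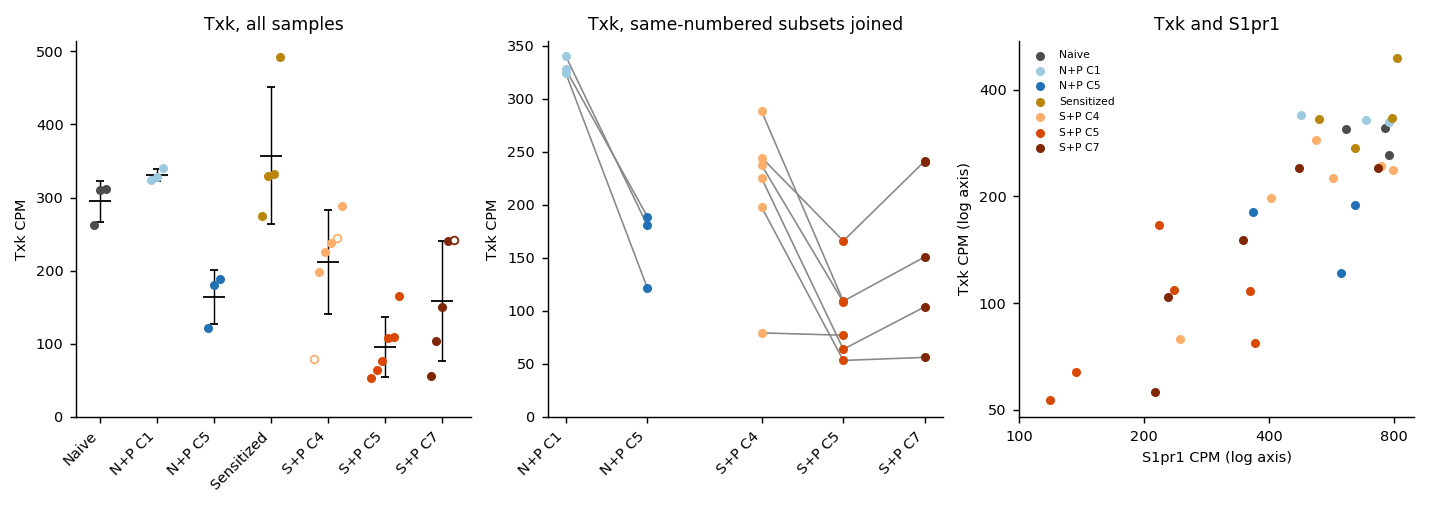
*Txk* in CPM by group (left, mean and SD as a black bar, open points for samples of low complexity), in subsets with the same replicate number joined by a line (middle), and against *S1pr1* in the 30 samples on log axes (right). *Txk* was lower in the PD1+CD73+ subset than in the PD1- subset in all 3 N+P and all 6 S+P pairs of the same number.

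Between subsets of the same number, *Txk* in N+P C5 was 37.5% to 57.6% of its level in N+P C1, lower in 3 of 3 pairs. In S+P C5 it was 26.9% to 97.2% of the level in S+P C4, lower in 6 of 6 pairs. The pair at 97.2% was the one whose S+P C4 sample had low complexity and 79.2 CPM. S+P C7 was above S+P C5 in 4 of 4 pairs, at 105% to 163%, the averaged sample being left out. *Cd3g* went the other way and was higher in S+P C5 than in S+P C4 in 6 of 6 pairs (106% to 181%). *Cd3e*, *Cd3g*, *Cd247*, *Cd8a*, *Cd8b1* and *Zap70* were higher in N+P C5 than in N+P C1 in 3 of 3 pairs. *Cd3d* was lower in 3 of 3, at 96.3% or more. The share of all genes that go the same way in every pair was not counted, so these counts are descriptions.

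Differences between groups were tested by the quasi-likelihood method of edgeR in 1 fit of all samples, with p-values adjusted by Benjamini-Hochberg over all 19657 genes. A gene was called where the adjusted p was under 0.1 and the absolute log2 fold change above 0.9, which are also the thresholds in the methods. Shares called by DESeq2, a second tool, are of 33256 genes, since it was run without the filter on low counts. The labels number the replicates without naming mice, so the p-values measure the spread between these samples. Subsets with the same number are not independent samples if they come from 1 mouse. In bulk samples a lower level in every cell and a smaller share of cells with the transcript cannot be told apart. A count of 0 called does not show that levels were equal, and the intervals give the range of differences left. Comparisons with Naive share the Naive samples, and those with Sensitized share the Sensitized samples.

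After skin graft rejection, *Lck* had higher levels than in Naive mice in every sample, without passing the test. Between Sensitized and Naive, 0 of 9 genes were called by edgeR and 0 by DESeq2, and 0 had an unadjusted p under 0.05, where edgeR called 0.153% of all genes, DESeq2 3.31%, and 7.82% had such a p. *Lck* was the member without overlap between the groups, which was true of 7.59% of all genes, and its log2 fold change was 0.35 (95% interval -0.35 to 1.05). For the other 8 genes the log2 fold change ran from -0.34 (*Cd8a*) to 0.28 (*Txk*).

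In naive mothers, *Cd3e* was highest and *Txk* lowest in the PD1+CD73+ cells, but neither passed the test. Between N+P C1 and Naive, edgeR and DESeq2 each called 0 of 9 genes and 0 had an unadjusted p under 0.05, against a background of 0% called by edgeR, 2.25% by DESeq2 and 3.23% with such a p. *Cd3e* (log2 fold change 0.32) and *Txk* (0.17) did not overlap, as 7.30% of all genes. Between N+P C5 and Naive, both tools again called 0 of 9 and edgeR gave 0 an unadjusted p under 0.05 (0.0407% and 5.33% of all genes, with 3.06% called by DESeq2). The samples of 4 members did not overlap, where 12.9% of all genes did not. These were *Cd3e* (log2 fold change 0.65, interval -0.15 to 1.45), *Cd3g* (0.17, -0.30 to 0.64), *Cd247* (0.28, -0.56 to 1.12) and, lower, *Txk* (-0.85, -1.86 to 0.16, unadjusted p = 0.0951).

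Between the subsets of naive mothers, N+P C5 and N+P C1, 0 of 9 genes were called by either tool, where edgeR called 0.00509% of all genes and DESeq2 2.51%. *Txk* alone had an unadjusted p under 0.05, as 4.31% of all genes, with a log2 fold change of -1.02 (interval -2.02 to -0.01, unadjusted p = 0.0486, adjusted p = 0.919 by edgeR with Benjamini-Hochberg adjustment). The samples of 5 members did not overlap, where 10.8% of all genes did not: *Txk*, which was lower, and *Cd3e* (0.34), *Cd3g* (0.26), *Cd247* (0.39) and *Zap70* (0.67), which had higher levels in N+P C5. With 3 samples in each group, none of these higher levels passed the test.

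In sensitized mothers, *Txk* fell in the PD1+CD73+ subset, and it was the 1 member called in any comparison. Between S+P C5 and Sensitized its log2 fold change was -1.89 (SE 0.38, interval -2.68 to -1.11, adjusted p = 0.0558 by the edgeR quasi-likelihood test, Benjamini-Hochberg adjusted), a level 3.71-fold lower, in 6 of 6 S+P C5 samples below all 4 Sensitized samples. Of all genes 0.0712% were called here, and 0.0407% were called as lower. DESeq2 also called *Txk* alone among the members, where it called 3.18% of all genes. The call was lost (count of 0) without S+P C5 replicate 2, 4, 5 or 6 (adjusted p = 0.125, 0.184, 0.217 and 0.116) and without Sensitized replicate 1, 2, 3 or 4 (0.157, 0.333, 0.115 and 0.107), while the log2 fold change kept between -2.11 and -1.70. Without the samples of low complexity, none of which is in either of these groups, the adjusted p was 0.000973 by the same test. The log2 fold change was then -1.86, and the SE was 0.30, in a fit where all groups share 1 estimate of the spread.

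Some markers of other cell types moved between the same groups. The summed level of 3 NK cell genes ran from 53.3 to 126 CPM (median 80.8) in Sensitized and from 0 to 62.2 (median 5.93) in S+P C5, and *Klrb1c* (NK1.1) made up nearly all of the Sensitized sums. The defining NK receptor gene *Ncr1* was at 0 in all 6 S+P C5 samples and at most 1.90 CPM in Sensitized. The sum of 4 dendritic cell genes ran from 33.2 to 99.5 CPM (median 47.1) in Sensitized and from 0 to 30.6 (median 12.6) in S+P C5, without overlap, and came mostly from *Itgax* (CD11c), with *Flt3* at 0 in Sensitized. The sum of 5 monocyte and macrophage genes went the other way. It ran from 4.05 to 345 CPM (median 15.8) in Sensitized and from 28.9 to 80.8 (median 58.0) in S+P C5. The sum of CD4 T cell genes was low, at 4.04 to 28.6 CPM in Sensitized and 0 to 2.51 in S+P C5. That of gamma delta T cell genes was 1.12 to 5.08 CPM in Sensitized and 0 in S+P C5, so neither sum overlapped. The sums of B cell genes (211 to 373 and 154 to 281 CPM) and erythroid genes (0.121 to 5.90 and 0.209 to 61.7 CPM) did overlap. The part of these transcripts in the level of *Txk* was not tested.

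*Cd3e* was the other member with an unadjusted p under 0.05 in this comparison, as 13.0% of all genes, with a log2 fold change of 0.65 (interval 0.01 to 1.29, unadjusted p = 0.0478, adjusted p = 0.378). Its groups overlapped, with S+P C5 replicates 3 and 6 (306 and 680.5 CPM) below the highest Sensitized sample (759.7). *Lck* had a log2 fold change of -0.46 (-1.05 to 0.12), *Cd247* 0.50 (-0.17 to 1.18), *Cd8a* 0.36 (-0.13 to 0.84) and *Cd3g* 0.30 (-0.07 to 0.68). Intervals for *Cd8b1* (0.04, -0.51 to 0.58), *Zap70* (-0.06, -0.86 to 0.74) and *Cd3d* (0.10, -0.38 to 0.59) lay on both sides of 0. *Txk* was the 1 member whose groups did not overlap, as 2.88% of all genes.

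In the PD1- and the PD1+CD73- cells of sensitized mothers, *Txk* was again the member with the largest fold change against Sensitized, without passing the test. Between S+P C4 and Sensitized, edgeR and DESeq2 called 0 of 9 genes, 0 had an unadjusted p under 0.05 and 0 were without overlap, where edgeR called 0.00509% of all genes, DESeq2 2.98%, 12.7% had such a p and 0.799% did not overlap. *Txk* came nearest, with a log2 fold change of -0.75 (interval -1.53 to 0.03, unadjusted p = 0.0579). Between S+P C7 and Sensitized, edgeR called 0 of 9, where 0.0305% of all genes were called, and DESeq2 called 1, *Txk*, where it called 2.43% of all genes. By edgeR *Txk* had a log2 fold change of -1.17 (interval -1.99 to -0.35, unadjusted p = 0.00645, adjusted p = 0.473), the 1 member with an unadjusted p under 0.05 against 10.2% of all genes. *Txk* (lower) and *Cd8a* (higher, 0.32, interval -0.18 to 0.82) did not overlap, as 2.15% of all genes. *Zap70* had a log2 fold change of 0.77 (-0.07 to 1.61) there.

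**Figure D3:**
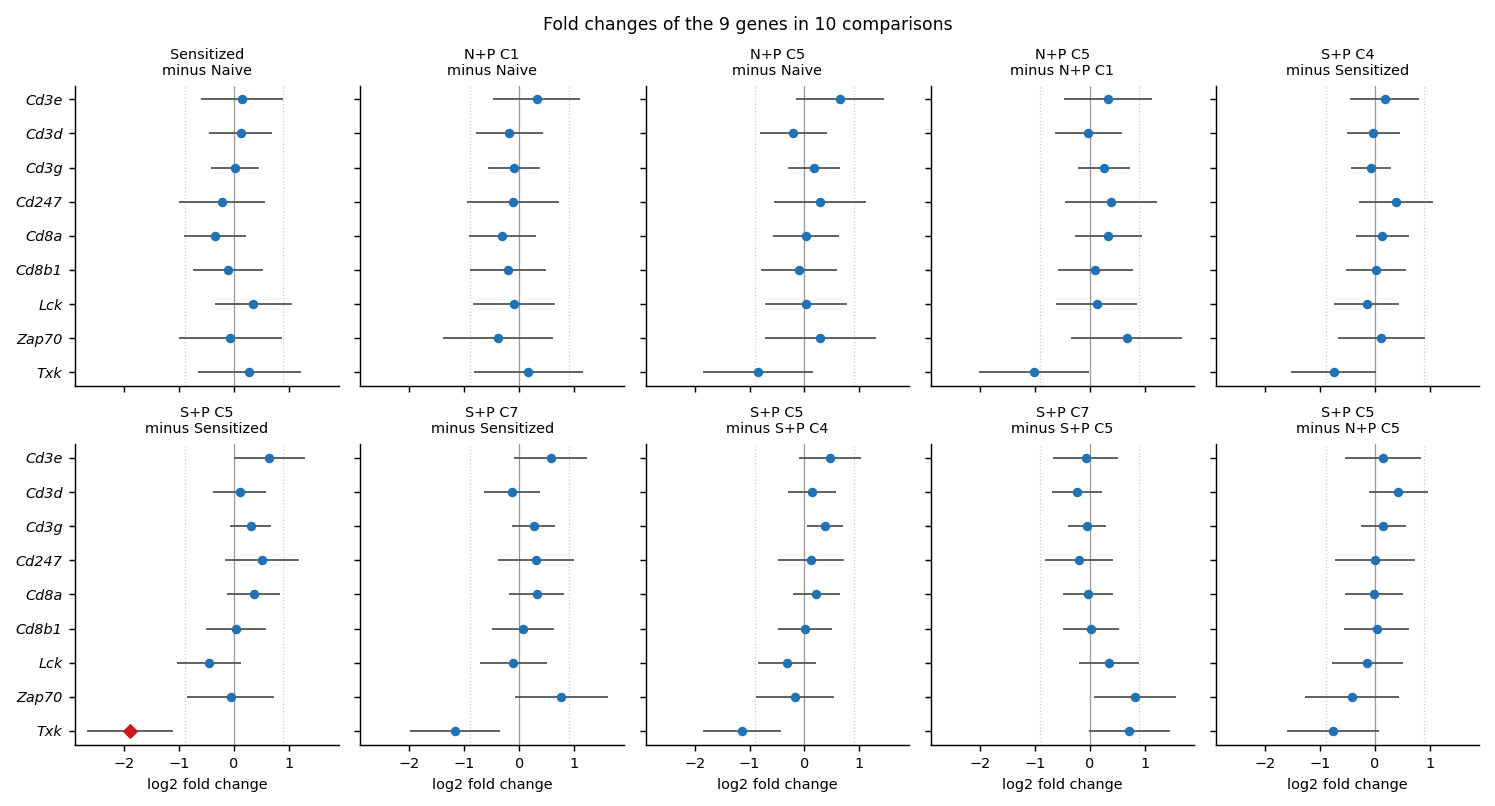
Log2 fold change (horizontal axes) of each of the 9 genes in 10 comparisons, with 95% intervals as lines and dotted lines at -0.9 and 0.9. The red diamond is the 1 called value, *Txk* in S+P C5 against Sensitized at -1.89, and the points of *Txk* lie left of 0 in every comparison of a PD1+CD73+ subset with the unmated or PD1- group.

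Within sensitized mothers, *Txk* had lower and *Cd3g* higher levels in the PD1+CD73+ than in the PD1- cells in each pair of the same number, both without a call by edgeR. Between S+P C5 and S+P C4, edgeR called 0 of 9, where 0.0305% of all genes were called, and DESeq2 called 1, *Txk*, where it called 3.05% of all genes. The edgeR log2 fold change of *Txk* was -1.14 (interval -1.85 to -0.42, unadjusted p = 0.00278, adjusted p = 0.297) and that of *Cd3g* 0.38 (0.04 to 0.71, unadjusted p = 0.0284, adjusted p = 0.311). These 2 had an unadjusted p under 0.05, as 13.3% of all genes, and 0 of 9 were without overlap, as 0.687% of all genes. Without the samples of low complexity *Txk* passed both thresholds here (log2 fold change -1.30, adjusted p = 0.0914). Over all genes the median log2 fold change was 0.11 in the fit of all samples. With the replicate number added to the fit it was 0.60, above the 0.39 of *Cd3g*.

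Between the PD1+ subsets S+P C7 and S+P C5, edgeR and DESeq2 called 0 of 9, where edgeR called 0% of all genes and DESeq2 1.88%. *Zap70* was the 1 member with an unadjusted p under 0.05, as 12.7% of all genes, with a log2 fold change of 0.83 (interval 0.08 to 1.57, unadjusted p = 0.0307, adjusted p = 0.314). Without S+P C7 replicate 3 that value was 0.50 (unadjusted p = 0.166). *Txk* had a log2 fold change of 0.72 (-0.02 to 1.46), and 0 members were without overlap, as 0.397% of all genes.

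The same gate, PD1+CD73+, was also compared between sensitized and naive mothers. With S+P C5 set against N+P C5, 0 of 9 genes were called by either tool and 0 had an unadjusted p under 0.05, where edgeR called 0% of all genes, DESeq2 2.21%, and 5.88% had such a p. *Cd3d*, with a log2 fold change of 0.43 (interval -0.11 to 0.97), was the member without overlap, as 2.67% of all genes. *Txk* had a log2 fold change of -0.77 (-1.61 to 0.08, unadjusted p = 0.0738). The labels give no PD1 or CD73 gate for Naive and Sensitized, so in comparisons with them pregnancy and gate cannot be told apart. In the study, S+P mice were mated from the same minimum time after the graft at which Sensitized mice were examined. Time since the graft may thus differ as well, and cannot be told apart from pregnancy. The difference between 2 such comparisons, S+P C5 against Sensitized less N+P C5 against Naive, was -1.04 for *Txk* (interval -2.32 to 0.23, unadjusted p = 0.105). By this interaction test, edgeR and DESeq2 called 0 of 9 genes and 0 had an unadjusted p under 0.05 (0.0254% and 6.42% of all genes, with 2.47% called by DESeq2), so the fall of *Txk* in sensitized mothers was not shown to differ from the change in naive mothers.

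The technical libraries of a sample differed from each other, which adds to the spread between samples. For 22 samples with a pair of usable libraries, the median absolute log2 difference between them was 0.13 for *Cd3d* and *Cd8b1*, 0.15 for *Lck*, 0.17 for *Cd8a*, 0.20 for *Cd3g*, 0.22 for *Cd3e*, 0.31 for *Cd247*, 0.33 for *Zap70* and 0.39 for *Txk*. The pair that differed most for several genes was that of Sensitized replicate 2. It had 400.2 and 868 CPM of *Txk*, 126 and 517 of *Cd247*, 177 and 44.7 of *Zap70*, and 228 and 497 of *Cd3e*. Even its lower *Txk* library lay above every S+P C5 and S+P C7 sample. *Txk* and *Zap70*, the scarcest members, had technical SDs of 0.38 and 0.49 on the log2 scale beside SDs of 0.58 and 0.57 between the samples of a group. *Cd3e* and *Cd247*, which were more abundant, had technical SDs of 0.48 and 0.44 beside 0.51 and 0.49. The technical SDs are those of a single library, while most samples are sums of a pair of libraries. The technical part of a summed sample is smaller, so both kinds of SD cannot be set against each other directly.

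**Figure D4:**
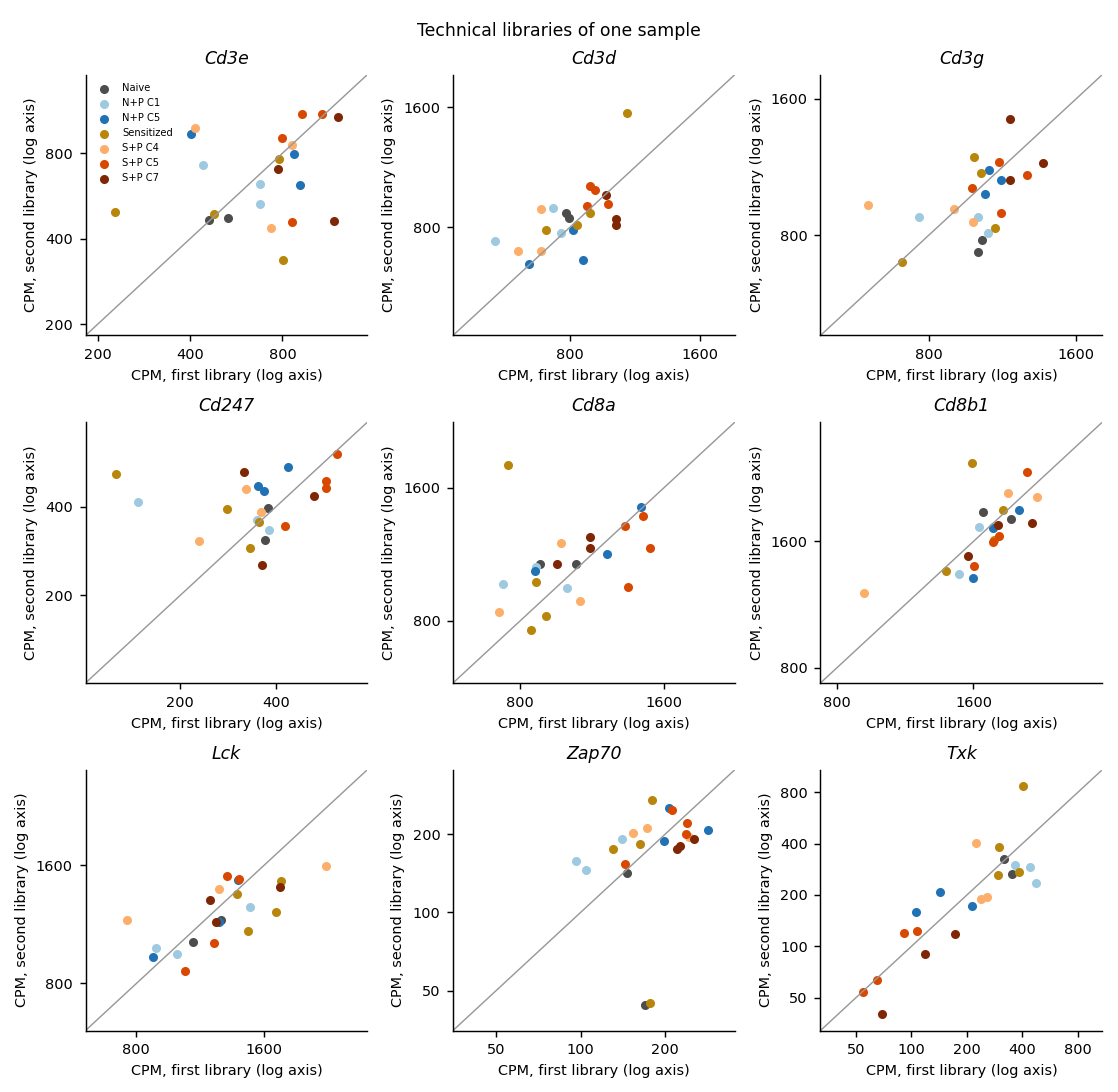
CPM of each of the 9 genes in the first (horizontal) and second (vertical) technical library of 22 samples, on log axes, 1 point per sample coloured by group, with the line of equality. *Cd3d* and *Cd8b1* lie close to the line, with a median absolute log2 difference of 0.13, and *Txk* is more scattered, at 0.39.

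The other genes of the pathway were taken as 1 list of 54 genes, chosen by role with earlier results of these data known: coreceptors and surface modulators, kinases, adaptors, enzymes and channels, phosphatases and other brakes, and TCR constant genes. Of these, 53 were tested. edgeR called 0 of 53 in each of the 11 comparisons, among them the comparison of S+P C5 with Sensitized in which *Txk* was called. An unadjusted p under 0.05 was given to 3 genes as higher and 3 as lower in S+P C5 against Sensitized (13.0% of all genes), to 3 as higher and 0 as lower in N+P C5 against Naive (5.33% of all genes), and to 3 as higher and 4 as lower in S+P C7 against Sensitized (10.2% of all genes). It was given to 3 as higher and 0 as lower in Sensitized against Naive (7.82% of all genes) and to 3 as higher and 3 as lower in S+P C5 against S+P C4 (13.3% of all genes). In each of the other 6 comparisons 1 or 2 genes of the list had such a p. The median log2 fold change of the list ran from -0.05 to 0.12 over the comparisons, and that of all genes from -0.14 to 0.11.

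DESeq2 called 2 of 54 genes in Sensitized against Naive (*Cd48* and *Ptprj*, with 3.31% of all genes called). It called 2 in N+P C1 against Naive (*Ptprj* and *Dok1*, 2.25%) and 2 in N+P C5 against Naive (*Ptprj* and *Fyn*, 3.06%). In N+P C5 against N+P C1 it called 1 (*Dok1*, 2.51%), as in S+P C5 against Sensitized (*Fyn*, 3.18%) and in the interaction (*Ptprj*, 2.47%). In the other comparisons it called 0. *Dok1*, at 4.78 CPM in Naive, and *Ptprj*, at 0 in Naive and 7.65 CPM in N+P C5, were scarce. *Fyn*, named here after its values had been seen, encodes a Src family kinase, as *Lck* does. *Fyn* ran from 147 to 298 CPM in Sensitized and from 379.6 to 575 in S+P C5, which did not overlap, with a log2 fold change of 1.07 (unadjusted p = 0.00437, adjusted p = 0.277 by the edgeR quasi-likelihood test, Benjamini-Hochberg adjusted). It had means of 102 CPM in Naive and 245 in N+P C5 (log2 fold change 1.26, unadjusted p = 0.00628, adjusted p = 0.764). *Lck* had log2 fold changes of -0.46 and 0.02 in the same 2 comparisons.

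*Tec*, which lies next to *Txk* in the genome, had group means of 14.0 to 42.0 CPM and a log2 fold change of -0.09 in S+P C5 against Sensitized. *Syk*, the relative of *Zap70*, was at most 2.05 CPM in any sample and was not tested.

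**Figure D5:**
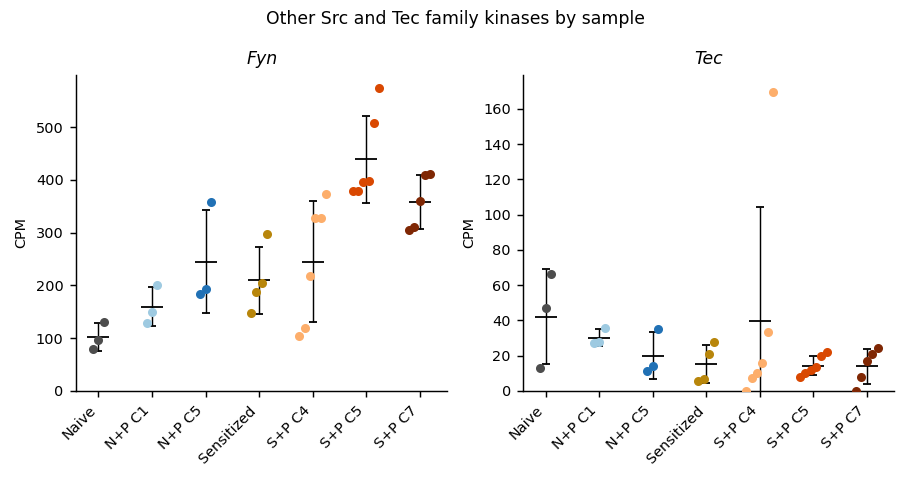
Level of *Fyn* and *Tec* in CPM (vertical axes, from 0) in the 30 samples of 7 groups, 1 point per sample, with the mean and SD of each group as a black bar. *Fyn* had its highest mean in S+P C5 (439 CPM) and its lowest in Naive (102), and the group means of *Tec* lay between 14.0 and 42.0 CPM.

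For each member, the genes whose level was most like it were sought by Pearson's r of log2(CPM + 1) over the 30 samples, among 8264 genes with a mean of at least 10 CPM. The points share library depth and complexity, so r is also given over the 27 samples without those of low complexity. *Txk* was most like *S1pr1*, the receptor for egress from lymph nodes (r 0.851, and 0.846 over 27 samples), *E430014B02Rik* (0.785 and 0.784) and *Klf13* (0.739 and 0.779). The mean level of *S1pr1* was highest in Naive (717 CPM) and Sensitized (694) and lowest in S+P C5 (239.8). N+P C5 had 535 CPM beside 646 for N+P C1, S+P C7 had 398 and S+P C4 had 546. *Cd3e* was most like *Nfil3* (0.800, 0.811 over 27) and *Impa2*, and *Cd3g* like *Ube2n* (0.773, 0.813 over 27), *Ifi27l2a* and *Txn1*. For *Lck* the nearest genes were *Lbr* (0.831, 0.779 over 27), *Lsp1* and *Tpst2*, and for *Zap70* they were *Cox18* (0.777, 0.726 over 27), *Arpc1b* and *Mrpl57*. *Cd8b1* was most like *Stxbp2* (0.826, 0.719 over 27), *Pde12* and *Exosc5*, and *Cd8a* like *Pts* (0.755, 0.657 over 27), *Nup88* and *Kif15*. *Cd3d* was nearest to *Fkbp3* (0.739, 0.608 over 27), *Cd28* and *Psmb3*, and *Cd247* to *Inpp5b* (0.788, 0.688 over 27), *Rce1* and *Flot2*. No member was among the nearest 3 genes of another.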

How the data were processed

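RNA-Seq was done on sorted TFGS of 7 groups. The authors deposited raw read counts per gene and library, without normalization, in 1 table. Before that, the authors trimmed reads with Cutadapt 3.4, aligned them with STAR 2.6.1b to GRCm39, removed reads that did not map uniquely and counted with featureCounts 2.0.1. The strand option and the annotation release are not given in the sources used here. SmartSeq2 adds no molecular identifiers.

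The members and lists were chosen with earlier results of these data known. Technical libraries were summed per replicate and subset. A column with equal counts in Naive replicate 1 and S+P C4 replicate 1 was dropped from both, and a pair of S+P C7 columns (r 0.999 of log2(CPM + 1) across genes, at most 0.953 between other technical pairs) was averaged.

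Levels are CPM on TMM-scaled library size. edgeR 4.0.16 was used for tests (filterByExpr minimum count 10, 1 robust quasi-likelihood fit with 30 samples in 7 groups, two-sided, Benjamini-Hochberg adjustment over 19657 genes). Before that it had been tested on simulated data. There it missed nearly all genes given an absolute log2 fold change of 1 or 2. In N+P C5 against Naive it also missed most of those given 3 or 4. A call needed an adjusted p under 0.1 beside an absolute log2 fold change over 0.9, as in the methods of the study. Alternatives were DESeq2 1.42.0 (33256 genes, without the filter), RLE scaling, no filter, fewer groups in the fit, all 56 columns, leaving out samples, removal of the most abundant rRNA gene and a block for the mouse. R 4.3.3 was used. Genes were placed with GENCODE M39, which held 54749 of 55359 identifiers.

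Named genes were the 9 members, list genes past both thresholds, and the 3 genes most like each member. A few genes that these rules would name are not reported here. *Fyn*, *Tec*, *Syk*, *Cd48*, *Dok1* and *Ptprj* were chosen for naming with their values in view. The pairing of post-partum subsets rests on the replicate number in the labels and on cell suspensions made per mouse, and the labels do not say that a number is a mouse. As a check, deviations from group means correlated at 0.129 on average over 14 same-numbered S+P pairs (8 above 0.1) and at -0.0225 between different numbers, and at 0.0173 to 0.0660 in 3 same-numbered N+P pairs.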

Additional observations from a re-analysis of the deposited data

How the results depend on the processing

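Of 99 pairs of a member and a comparison, 96 were called in none of the 38 other settings, and *Txk* was the 1 member called in any. Of 35 log2 fold changes of members that the text names, 3 changed sign, in 8 fits, and all 3 were near 0. When single samples were left out, *Lck* in N+P C5 against Naive ran from -0.16 to 0.21, *Cd8b1* in S+P C5 against Sensitized from -0.0530 to 0.11 and *Zap70* there from -0.17 to 0.14, and with all 56 columns *Lck* was at -0.049. In S+P C5 against Sensitized, 1 member was called, and the count ranged from 0 to 1 when single samples were left out (adjusted p = 0.0380 to 0.333). It was 0 without a filter on low counts (unadjusted p = 0.00262, adjusted p = 0.190), where the SE rose from 0.38 to 0.60. The log2 fold change of *Txk* there stayed between -2.11 and -1.70 over 17 alternatives, 8 of which called it. The count rose from 0 to 1 (*Txk*) without the samples of low complexity and with DESeq2, in S+P C7 against Sensitized (adjusted p = 0.0951 and 0.0924) and in S+P C5 against S+P C4 (adjusted p = 0.0914 and 0.0167). The cause was not tested. The replicate block (the replicate number, taken as the mouse) called 0 members in each of the 3 comparisons within mice, as without it, and changed no call of a member. Over all genes it called 0 in place of 1 in N+P C5 against N+P C1, 7 (1 higher, 6 lower) in place of 6 (3 and 3) in S+P C5 against S+P C4, and 0 as before in S+P C7 against S+P C5. With it, the log2 fold change was -1.04 for *Txk* in N+P C5 against N+P C1, -1.17 for *Txk* and 0.39 for *Cd3g* in S+P C5 against S+P C4, and 0.88 for *Zap70* in S+P C7 against S+P C5. The median log2 fold change of all genes under the block was 0.60 in S+P C5 against S+P C4 and -0.27 in S+P C7 against S+P C5. The value of *Cd3g* in S+P C5 against S+P C4 thus lay below the median of all genes. Of 252 group means under other settings, 220 moved by less than 1 SD and 32 by more, 31 of them after removal of the rRNA gene, which raises the CPM of every other gene.

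The tools tested unlike sets of genes, edgeR 19657 after the filter on low counts and DESeq2 33256 without it. Over all genes of each set, the number called differed by more than 1.5 times between edgeR and DESeq2 in every comparison. It was 30 and 1102 in Sensitized against Naive, 0 and 749 in N+P C1 against Naive, 8 and 1017 for N+P C5 and Naive, 1 and 834 for the pair of N+P subsets, 1 and 990 in S+P C4 against Sensitized, 14 and 1059 in S+P C5 against Sensitized, and 6 and 807 in S+P C7 against Sensitized. It was 6 and 1014 in S+P C5 against S+P C4, 0 and 625 in S+P C7 against S+P C5, 0 and 735 in S+P C5 against N+P C5, and 5 and 823 for the interaction. Without the samples of low complexity edgeR called 153, 19, 120, 15, 4, 199, 69, 33, 0, 16 and 27 genes in the same order. With 3 samples in Naive and in each N+P group the intervals were wide, -0.15 to 1.45 for *Cd3e* in the PD1+CD73+ cells.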

Other observations

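Among the 9 genes, Pearson's r of log2(CPM + 1) over the 30 samples ran from -0.622 to 0.654 over 36 pairs, with a median of 0.0479. Over the 27 samples without those of low complexity it ran from -0.694 to 0.699, with a median of 0.193. The points share libraries, depth and groups, so these values are descriptions. The lowest value was that of *Cd3e* with *Txk*, and *Cd3g* with *Txk* had -0.608. The highest was that of *Cd3e* with *Cd247*. *Cd8a* with *Cd8b1*, which lie next to each other and pair as protein, had 0.414, and *Cd3e* with *Cd3d* had -0.067. *Lck* with *Zap70* had 0.306 over 30 and 0.664 over 27 samples.

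The TCR constant genes were as abundant as the CD3 chains but more spread. *Trac* ran from 758 to 2400.0 CPM, *Trbc1* from 179 to 2601 and *Trbc2* from 988 to 6233 over the samples. *Trbc1* had a mean of 588 CPM in Sensitized and 1401 in S+P C5, with a log2 fold change of 1.25 (unadjusted p = 0.0145, adjusted p = 0.277 by edgeR with Benjamini-Hochberg adjustment). Reads of *Trbc1* and *Trbc2*, which are near-identical copies, could be split between them by the removal of reads that did not map uniquely.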
